A study of Mus musculus with 4 samples.

Results

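The mRNAs that encode the enzymes writing and erasing N6-methyladenosine (m6A) were examined for m6A marks of their own in mouse natural killer (NK) cells. They comprised 10 genes. Of these, 3 were writers with a methyltransferase fold (Mettl3, Mettl14 and Mettl16). Another 5 were accessory subunits of the writer complex (Wtap, Zc3h13, Rbm15, Rbm15b and Cbll1), and 2 were erasers (Fto and Alkbh5). Every distinct peak that the m6A peak list assigned to the Ensembl identifier of a member was taken, which gave 16 of 20727 peaks, in 8 of the 10 genes. No peak was listed under Mettl3 or Rbm15b.

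The cells were splenic NK cells of C57BL/6 mice, and there was no untreated or mutant comparison group. As the study's methods describe, the animals carried an injected pLIVE-IL-15 plasmid, which expanded the NK cells in vivo before they were sorted by flow cytometry, so that all libraries describe IL-15-driven cells. Poly(A) RNA was cut into short fragments, and 2 libraries of fragments pulled down with an m6A antibody (Synaptic Systems) were set against 2 libraries of input RNA that had not been pulled down. The labels did not state how many mice each library came from.

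The mark is written on adenosine within the DRACH motif, in which D stands for any base but C, R for a purine and H for any base but G, most often in long internal exons, around stop codons and in 3′ untranslated regions (UTRs). METTL3 is the catalytic subunit and METTL14 its partner that holds the RNA, WTAP keeps the pair in nuclear speckles, and ZC3H13, RBM15, RBM15B and CBLL1 help to place the complex on its targets. METTL16 acts alone on a few structured RNAs, among them U6 small nuclear RNA and the mRNA of the S-adenosylmethionine synthetase MAT2A, whereas FTO and ALKBH5 remove the methyl group by oxidation.

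The peak list gave 1 fold enrichment (immunoprecipitate over input reads, a ratio without unit) and 1 peak-calling p-value for each peak. Neither value named a library, so both were taken to cover all 4 libraries together. Values per library, and with them the depth and the error between replicates, could not be obtained, so that each value below stands without an error and peaks were described rather than tested. The p-value, given as its log10, was not adjusted. As a check of the label, all 8 NK cell marker genes examined carried a peak, among them Ncr1, Prf1 and Gzmb. So did 3 of 3 myeloid markers (Lyz2, Csf1r and Itgax), 1 of 3 T cell markers (Cd3e) and 1 of 3 B cell markers (Cd79a). Over all protein-coding genes of the annotation the share was 46.3%. The lowest log10 p was -322.0 in the myeloid marker Csf1r and -316.0 in the NK cell marker Il2rb. The check thus did not separate NK cells from myeloid cells. A listed peak gives no level of a transcript, and it need not lie on exons of the gene it names, as described below for Manf. The part that RNA of other cells played in the peaks of the writers and erasers was not tested.

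Of the 10 members 8 carried a peak, where 46.3% of all protein-coding genes of the annotation did. Strong peaks, defined as in the pathway analysis of the study by a fold enrichment of at least 5, occurred in 5 of these 8 members, namely Zc3h13, Cbll1, Mettl16, Wtap and Alkbh5. The corresponding share was 49.6% over all genes with a peak and 43.4% over protein-coding genes with a peak. When a p-value under 0.001 was required as well, 4 members remained and Mettl16 was lost, beside a background of 25.7%. Among the 16 peaks, 13 had a p-value under 0.001, compared with 61.5% of all peaks. The median fold enrichment of the 16 peaks was 1.94, compared with 2.37 over the 18250 peaks of protein-coding genes and 2.66 over all peaks.

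Fold enrichments of the 16 peaks fell into 2 ranges with a gap between them. The 11 weaker peaks lay between 1.23 and 2.63, and the 5 strong peaks between 5.37 and 9.42. The gap was not a trait of the list, as the median of all peaks, 2.66, falls in it. Peaks on Rbm15b that were listed under Manf, described below, also fall in it (2.74 and 2.75). Within the strong range, 3 peaks were also among the most significant of the list, with log10 p of -43.1 in Zc3h13, -48.6 in Wtap and -58.1 in Alkbh5. A fold enrichment of at least 5 together with a log10 p of -40 or lower was reached by 584 peaks in the list (2.82%), in 569 genes. The cut of -40 was set to mark these 3 member peaks. The share therefore places them in the list and cannot show that members reach such values more often. By contrast, the strong peaks of Cbll1 and Mettl16 had log10 p of -4.0 and -1.63. Their fold enrichment of 7.59 was not particular to these genes: exactly this value was given to 395 peaks, of which 18.0% had a p-value under 0.001 and whose median log10 p was -1.96. The values of 6.58 in Wtap and 9.42 in Zc3h13 occurred once each in the list.

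**Figure D1:**
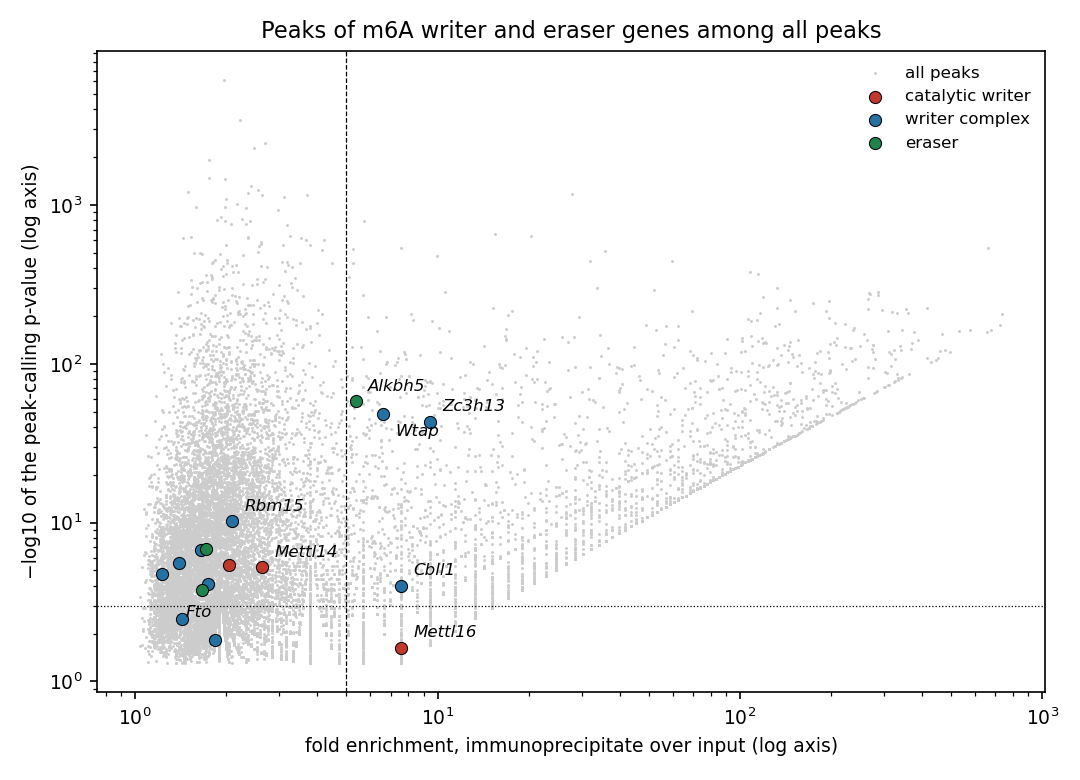
Fold enrichment (horizontal, log axis) against the negative log10 of the peak-calling p-value (vertical, log axis) for all 20727 peaks in grey and for the 16 peaks of writer and eraser genes in colour by role. The dashed line marks a fold enrichment of 5 and the dotted line a p-value of 0.001. One peak each of Alkbh5, Wtap and Zc3h13 lies to the upper right, while the Cbll1 peak and the stronger Mettl16 peak share the column at 7.59 and are far less significant.

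**Figure D2:**
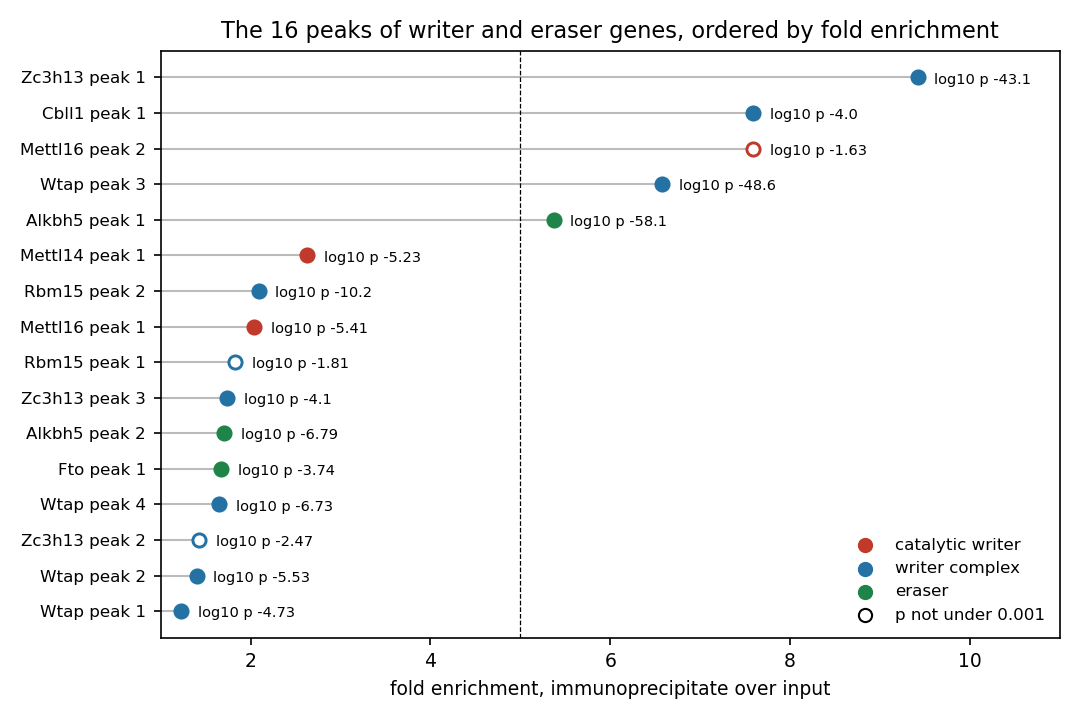
The 16 peaks ordered by fold enrichment (horizontal axis, starting at 1, which means no enrichment). Colour gives the role, open circles mark the 3 peaks with a p-value not under 0.001, and the dashed line stands at 5. None of the 16 lies between 2.63 and 5.37.

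To show the sequence under the peaks, 1 stretch of 30 bases was taken from the most significant peak on each of 8 members, around the GGAC form of DRACH nearest the centre of the peak or, where the peak held none, around the nearest other DRACH. Capitals mark the 5 bases of the motif, with the A at its centre being the base that could carry the methyl group. Sequences are from the GENCODE transcripts of GRCm38, written 5′ to 3′ on the strand of the gene, and the assay does not resolve which A was methylated.
Mettl14, chr3:123369659-123369688, minus strand: tggctcacagttGGACCaacgcttacaaac
Mettl16, chr11:74818538-74818567, plus strand: gttgaataagcaAAACTctgagatgtagct
Wtap, chr17:12967487-12967516, minus strand: tcagaatggcttGGACTcaaatgtaaatgt
Zc3h13, chr14:75327650-75327679, plus strand: cgatagggtcagGGACAgagatagggatcg
Cbll1, chr12:31485019-31485048, minus strand: gctatctatgatGGACAtaagtctaaatgt
Fto, chr8:91668246-91668275, plus strand: tcaccattttgtAAACCtgcgtccgtccca
Alkbh5, chr11:60557806-60557835, plus strand: ctttggatatagGGACTcccatatactcca
Rbm15b (peak listed under Manf), chr9:106884348-106884377, minus strand: agtcagcgctgcGGACAttgggcaagttag
A GGAC form was present in the peak shown for 6 of these 8 genes. Over all genes, 54.6% of peaks on the longest coding transcript held one. The motif of Mettl16 (AAACT) and of Fto (AAACC) was of the other kind. Wtap and Alkbh5, the writer subunit and the eraser with the most significant peaks, both showed the pentamer GGACT. Zc3h13, whose peak had a log10 p of -43.1, showed GGACA. A link between the pentamer and significance was not tested.

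Across the 16 peaks, 15 held a DRACH site and 11 a GGAC site. Over all genes, 54.6% of peaks that touched the longest coding transcript held a GGAC site. No such share was obtained for DRACH. All 5 strong peaks held a GGAC site, as did 6 of the 11 weaker ones, beside 70.1% of strong and 49.0% of weaker peaks over all genes. Per length, GGAC was not more frequent in the strong member peaks (2.71 per kb) than in the weaker ones (3.01 per kb), and it was denser than in the rest of the isoform in 3 of the 16 peaks, 1 of them strong. Pooled density did not set the member peaks apart, as 81 DRACH sites in 4171 exonic nucleotides (nt) gave 19.4 per kb. It was 20.2 per kb over the 15209 peaks of all genes that touched the longest coding transcript. Over those whole transcripts it was 20.4 per kb. Sites were counted over all bases of the peaks together, so that peaks with long spans weighed most. From its own motif search, the study reported DRACH as enriched in its m6A peaks. For GGAC the density was 2.88 per kb in member peaks and 4.10 per kb in all placed peaks. In 8 peaks DRACH was denser than in the rest of the same isoform and in the other 8 it was not. The strong peaks held 16.3 DRACH sites per kb and the weaker ones 21.9.

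Each peak was next compared with every annotated isoform of its gene. All 16 touched exons of at least 1 protein-coding isoform, and no peak lay on non-coding isoforms alone. There were 8 peaks that touched every coding isoform of the gene and 8 that touched only some, while 4 also touched a non-coding isoform. The authors' annotation labelled 14 of the 16 peaks (87.5%) as 3′ UTR and 2 as exon, beside 59.4% labelled 3′ UTR among all peaks of protein-coding genes. When the centre of the exonic part was placed on the coding transcript with the longest coding sequence (CDS), 13 peaks could be placed, 8 in the 3′ UTR and 5 in the CDS, with 0 in the 5′ UTR. Over all genes 54.2% of placed centres were in the 3′ UTR and 36.2% in the CDS. The 3 remaining peaks, in Mettl16 and Wtap, lay only on other coding isoforms, in their 3′ UTR. Of the 13 placed centres, 4 lay within 200 nt of the end of the stop codon, beside 23.2% of placed peaks over all genes. The last exon of the isoform held 13 of the 16 peaks. The stop codon itself was covered by 3 peaks, in Wtap, Zc3h13 and Rbm15. For the last exon and for covering the stop codon no share over all genes was obtained, so these counts have no background.

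**Figure D3:**
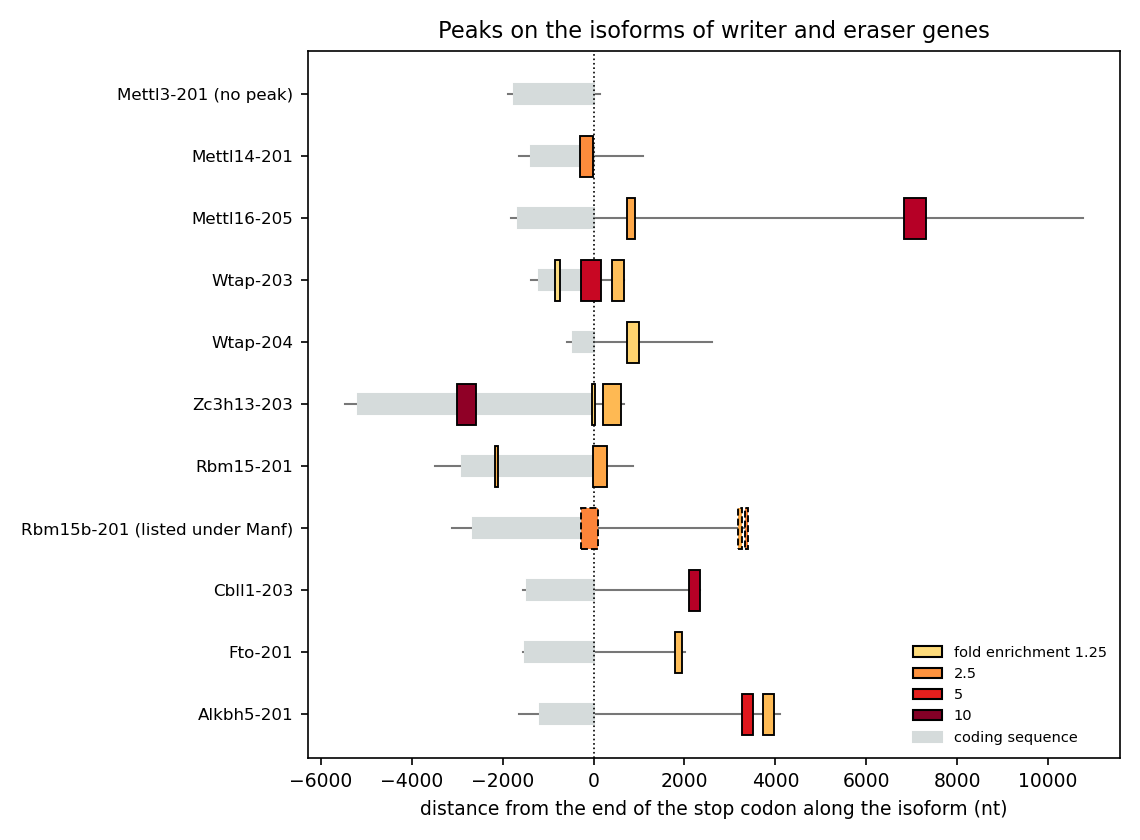
Position of the peaks on 1 or 2 isoforms of each gene, as distance from the end of the stop codon (nt, negative upstream). Grey blocks are coding sequence, thin lines UTRs, and coloured boxes peaks, darker for higher fold enrichment. Dashed boxes are peaks listed under Manf that lie on Rbm15b. Strong peaks stand at the stop codon of Wtap, inside the coding sequence of Zc3h13 and in the distal 3′ UTR of Mettl16, Cbll1 and Alkbh5.

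Among the writers with a methyltransferase fold, no peak was assigned to Mettl3 (ENSMUSG00000022160, chr14:52294841-52305128, minus strand). The annotation gave it 15 isoforms, 4 coding, 5 with a retained intron and 6 marked for nonsense-mediated decay. Its longest coding transcript, Mettl3-201, was short, at 2025 nt with a 3′ UTR of 141 nt, yet contained 38 DRACH sites, 18.8 per kb. Mettl3 exons were touched by 2 weak peaks (1.4 and 1.42), both listed under Tox4, a nuclear factor gene that overlaps it on the opposite strand. These covered 178 and 113 nt of the Mettl3-201 coding sequence but 331 and 180 nt of Tox4 exons. Whether the libraries kept strand was not given in the sources used here, so that signal of the 2 genes cannot be told apart there. The lack of a listed peak says only that none was assigned to Mettl3 in this list.

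Mettl14 (ENSMUSG00000028114) carried 1 peak, at chr3:123369404-123369763 on the minus strand, enriched 2.63-fold at a log10 p of -5.23. It touched 4 of 4 coding isoforms, and its region depended on the isoform. On the longest coding transcript, Mettl14-201, all 287 exonic nt were coding sequence of exon 11 of 11, with the last base 18 nt before the end of the stop codon. On Mettl14-203 the peak covered 219 nt, again coding sequence. On Mettl14-202 and Mettl14-204 the whole 360 nt were 3′ UTR, which is the label the authors' annotation gave. The peak held 8 DRACH sites, 27.9 per kb, beside 25.3 per kb in the rest of Mettl14-201.

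Mettl16 (ENSMUSG00000010554, chromosome 11, plus strand) carried 2 peaks, and both lay on only 1 of its 3 coding isoforms. This isoform, Mettl16-205, is 12584 nt long with a 3′ UTR of 10767 nt, whereas the isoform with the longest coding sequence, Mettl16-201, has a 3′ UTR of 136 nt and was touched by neither. The peak at chr11:74818485-74818665 was enriched 2.04-fold at a log10 p of -5.41, with its centre 817 nt past the stop codon. The other, at chr11:74824599-74825078, had a fold enrichment of 7.59 but a p-value of only 0.0234, with its centre 7080 nt past the stop codon and 5933 nt between the peaks. Thus the higher fold and the stronger evidence fell on different peaks of the gene.

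Wtap (ENSMUSG00000060475, chromosome 17, minus strand), the regulatory subunit, carried 4 peaks, more than any other member. Among protein-coding genes with a peak, 7.90% had 4 or more. The strong peak, at chr17:12967304-12967753, was enriched 6.58-fold at a log10 p of -48.6, and 5.95% of all peaks were at least as significant. It touched only Wtap-201 and Wtap-203 (2 of 8 coding isoforms), which have the longest coding sequence, covered the stop codon in the last exon with 286 nt of coding sequence and stop codon and 164 nt of 3′ UTR, and held 9 DRACH sites. The GGACT shown above lies in the coding sequence, with its A 34 nt before the end of the stop codon.

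The 3 other Wtap peaks were weak, with fold enrichments between 1.23 and 1.65. On the same isoforms, the peak at chr17:12966796-12967065 (1.65, log10 p -6.73) began 238 nt after the strong peak and reached the last base of the transcript. The peak at chr17:12974293-12974562 (1.4, log10 p -5.53) touched only Wtap-204 and Wtap-205, longer transcripts (3187 and 2442 nt, beside the 2060 nt of Wtap-203) with a shorter coding sequence of 453 nt instead of 1188 nt, and lay in the 3′ UTR that they alone have. The weakest, at chr17:12975280-12975399 (1.23, log10 p -4.73), touched coding sequence in 5 of 8 coding isoforms, among them all 4 just named, although its label was 3′ UTR. It held 7 DRACH sites in 104 exonic nt of Wtap-203, 67.3 per kb beside 22.0 per kb in the rest of the isoform, the highest density among the 16 peaks, at the lowest fold enrichment. Wtap-201 with Wtap-203 and Wtap-204 with Wtap-205 thus each had a 3′ UTR peak that the other pair lacked, and the strong stop codon peak was on the former.

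**Figure D4:**
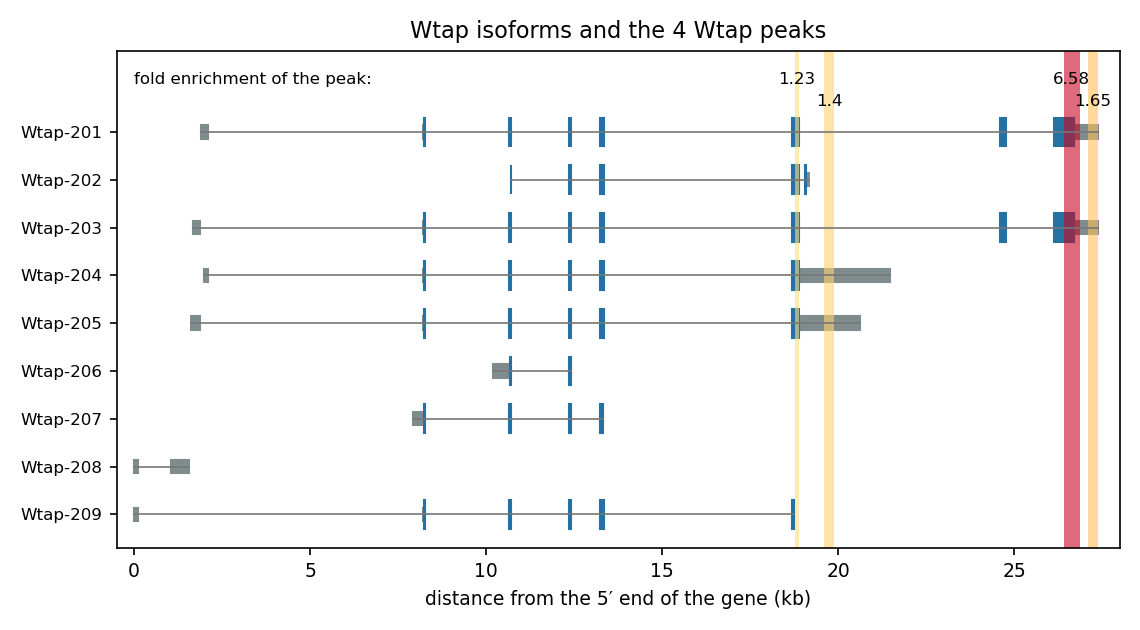
The 9 annotated Wtap isoforms, drawn 5′ to 3′ against distance from the 5′ end of the gene (kb). Blue blocks are coding exons, grey blocks untranslated exons, and vertical bands the 4 peaks with their fold enrichment. The band of 6.58 crosses the last exon of Wtap-201 and Wtap-203, and that of 1.4 the longer final exon of Wtap-204 and Wtap-205.

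Zc3h13 (ENSMUSG00000022000, chromosome 14, plus strand), a zinc finger protein that anchors the complex in the nucleus, had the highest fold enrichment of the members. Its peak at chr14:75327628-75328046 reached 9.42 with a log10 p of -43.1. It touched 2 of 2 coding isoforms, lay wholly in the coding sequence of exon 12 of 19 of Zc3h13-203, and had its centre 2804 nt before the end of the stop codon, which placed it far from the stop codon and 3′ UTR positions of the other strong peaks. With 3 DRACH sites, 1 of them GGAC, it held 7.16 per kb against 24.8 per kb in the rest of the isoform.

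The Zc3h13 coding peak stood out in composition. Purines made up 87.1% of its bases, compared with 58.3% in the rest of the isoform, between 38.3% and 59.6% in the other 15 member peaks, and a median of 50.8% in all placed peaks, of which 99.7% had fewer purines. The central 300 nt are printed to show this run of A and G in the member peak with the highest fold enrichment. That value belongs to the whole peak. Capitals mark its 2 DRACH sites, GAACT and TGACC, while the GGACA shown above lies upstream in the same peak.
Zc3h13 exon 12, chr14:75327687-75327986, plus strand: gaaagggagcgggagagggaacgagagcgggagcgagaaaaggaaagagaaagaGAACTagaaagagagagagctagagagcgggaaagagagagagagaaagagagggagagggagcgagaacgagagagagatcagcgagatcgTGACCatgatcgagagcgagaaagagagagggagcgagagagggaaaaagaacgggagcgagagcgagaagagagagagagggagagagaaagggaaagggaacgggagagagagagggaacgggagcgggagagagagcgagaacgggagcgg
Of all placed peaks, 48 including this one had at least this share of purines. Their median fold enrichment was 3.37, beside 2.21 over all placed peaks. The part of base composition in the enrichment was not tested.

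The 2 other Zc3h13 peaks were weak and close to the 3′ end. The peak at chr14:75343739-75343799 (1.43, log10 p -2.47) spanned 61 nt, covered the stop codon and was the only member peak without a DRACH site. The peak at chr14:75343978-75344366 (1.74, log10 p -4.1) followed after 178 nt in the 3′ UTR and ended 60 nt before the end of the transcript. Both touched 2 of 2 coding isoforms and also the non-coding processed transcript Zc3h13-204.

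**Figure D5:**
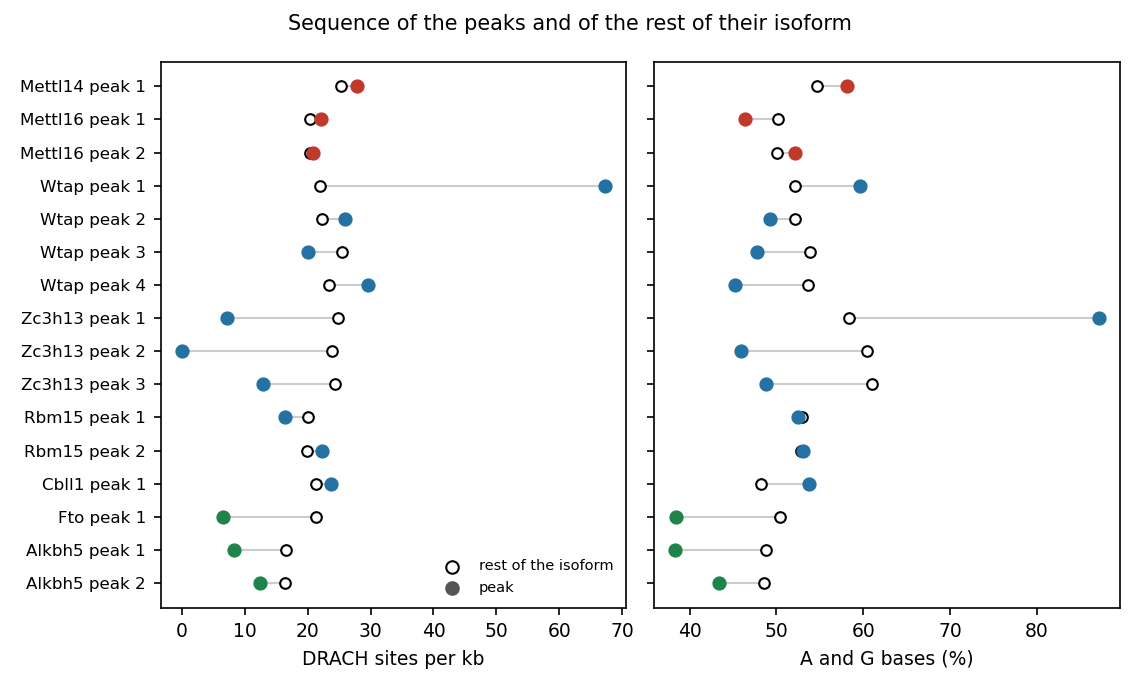
DRACH sites per kb (left) and share of A and G bases in percent (right) in each of the 16 peaks (filled circles, coloured by role) and in the rest of the same isoform (open circles). The coding peak of Zc3h13 lies at 87.1% purines with 7.16 DRACH sites per kb, and the first Wtap peak at 67.3 DRACH sites per kb.

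Rbm15 (ENSMUSG00000048109, chromosome 3, minus strand), an RNA-binding subunit, carried 2 weak peaks, and both touched its only coding isoform, Rbm15-201, as well as the retained-intron isoform Rbm15-202. The peak at chr3:107325990-107327269 (2.09, log10 p -10.2) was the more significant. Its span of 1280 nt included 830 nt that were intronic in every isoform, and on Rbm15-201 it covered 23 nt of coding sequence and stop codon and 292 nt of 3′ UTR. The peak at chr3:107332296-107332356 (1.83, log10 p -1.81) lay in the coding sequence of exon 1.

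Rbm15b (ENSMUSG00000074102, chr9:106880918-106887428, minus strand), the paralog of Rbm15, had no peak under its own identifier, but 3 peaks listed under Manf lay on its exons. Manf encodes a neurotrophic factor of the endoplasmic reticulum and neighbours Rbm15b on the same strand. These peaks overlapped 0 nt of annotated Manf exons. The peak at chr9:106884203-106884591 was enriched 2.75-fold at a log10 p of -12.5, covered the stop codon of Rbm15b-201 with 288 nt of coding sequence and stop codon and 101 nt of 3′ UTR, and held 6 DRACH sites, 2 of them GGAC. The peak at chr9:106881037-106881127 (1.96, log10 p -3.75) lay 3222 nt past the stop codon. The peak at chr9:106880752-106880962 (2.74, log10 p -5.32) shared 45 nt with the end of the transcript. By position, then, Rbm15b had a stop codon peak as its paralog did, and counting peaks on exons of the same strand raised the members with a peak from 8 to 9. A peak of Dcaf1 on the opposite strand, with a span of 18103 nt, also ran across the gene (3.16, log10 p -1.81).

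Cbll1 (ENSMUSG00000020659), which encodes the E3 ubiquitin ligase HAKAI of the complex, carried 1 strong peak at chr12:31484829-31485188 on the minus strand, with a fold enrichment of 7.59 and a p-value of 0.0001. It touched 3 of 5 coding isoforms, all in the 3′ UTR, had its centre 2217 nt past the stop codon of Cbll1-203 and reached the last base of that transcript. Including this one, 5 of the 16 member peaks ended within 150 nt of the end of the transcript, as did 36.4% of all placed peaks.

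The 2 erasers differed in their peaks. Alkbh5 (ENSMUSG00000042650, chromosome 11, plus strand) had the most significant peak of any member, at chr11:60557674-60557913, with a log10 p of -58.1 at 5.37-fold enrichment, and 4.83% of all peaks were at least as significant. Its second peak, at chr11:60558153-60558392, was enriched 1.71-fold (log10 p -6.79) and began 239 nt further on. Both touched the only coding isoform, Alkbh5-201, and their centres lay 3378 and 3857 nt past the stop codon in a 3′ UTR of 4097 nt. They held 2 and 3 DRACH sites, fewer per kb (8.33 and 12.5) than the rest of the isoform (16.6 and 16.4).

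Fto (ENSMUSG00000055932) carried 1 weak peak, at chr8:91668229-91668379 on the plus strand, enriched 1.67-fold at a log10 p of -3.74. It touched 1 of 6 coding isoforms, Fto-201, in the 3′ UTR, with its centre 1869 nt past the stop codon and its last base 60 nt before the end of the transcript. The AAACC printed above was its only DRACH site. In both erasers, the peaks were thus in the distal 3′ UTR, and none was near the stop codon. With no value per library, the difference in fold enrichment between Alkbh5 and Fto could not be set against replicate error.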

How the data were processed

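Per the labels and the study's methods, reads were quality-trimmed by the authors and mapped to GRCm38 using HISAT2 (1.0), after which exomePeak called the peaks and ChIPseeker (1.0) annotated them. How the replicates were combined was not given in the sources used here. The deposited fold enrichment is a ratio of immunoprecipitate over input reads, and the deposited significance is a score, the log10 of an unadjusted p-value, at most -1.30. With 0 columns for single samples, depth and replicate error are unknown.

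Of 20751 rows, 24 repeated another exactly. Peaks were matched to members by gene identifier and compared with GENCODE M21 isoforms in Python (3.11.15) with pandas (2.3.3). A peak absent from the longest coding transcript was described on the coding isoform with the most exonic overlap. DRACH was counted on the strand of the gene. Placement and motif counts were tested on simulated data, and 9 of 9 printed sequences were identical to the genome. The site sequence of Rbm15 is not reported here. The members, gene lists and alternatives were chosen with earlier results of these data known, and all members were named. No test between groups was possible.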

Additional observations from a re-analysis of the deposited data

How the results depend on the processing

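Of 18 alternative values for 7 results, 12 stayed within 1.5 times the value above and 6 moved. Keeping only member peaks enriched 2-fold or more left 8 of the 16, and keeping those enriched 5-fold or more left 5. Strong peaks at a fold enrichment of at least 10 occurred in 0 members. The authors' region column put 14 peaks in the 3′ UTR instead of 8, because 3 peaks off the longest coding transcript and 3 with their centre in the CDS also carried that label. Counting GGAC in place of DRACH gave 2.88 sites per kb, since it is a narrower motif. Taking only the strongest peak of each member gave a median fold enrichment of 5.98 in place of 1.94. Of the alternatives, 3 (strong peaks with a p-value under 0.001, the transcript with the longest total length, and the median over peaks with a p-value under 0.001) were added after the data were seen. No paired analysis was possible because the list gives no value per library, and leaving out replicates could not be run for the same reason. The unknown depth limits what an absent peak means.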

Other observations

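Related genes of the m6A pathway also carried peaks. The counts below stand beside 46.3% of protein-coding genes with a peak and, among those, 43.4% with a strong one. Among 14 reader genes, whose proteins bind m6A or RNA opened by it, all 14 had a peak and 5 a strong one. These were led by Igf2bp3 (47.4, log10 p -14.5), Igf2bp1 (19.0, log10 p -3.75) and Igf2bp2 (17.1, log10 p -3.33), which stabilise bound mRNAs. The Igf2bp1 peak was not a narrow site: it ran over chr11:95957163-96005940, with 8378 nt on the longest coding transcript. Ythdc1, the nuclear reader, reached 9.48 in a peak that touched 0 coding isoforms (log10 p -1.69), and Prrc2a 5.69 (log10 p -8.94). Another list held 6 genes of other writer subunits and of methyltransferases or their partners (Virma, Mettl5, Trmt112, Zcchc4, Pcif1 and Mettl4). Of these 6 genes 5 had a peak, and only Zcchc4, which methylates 28S ribosomal RNA, had a strong one (28.2, log10 p -147.0). The Zcchc4 peak was not a narrow genomic span either: it ran over chr5:52783197-52796051, with 295 nt on the longest coding transcript.

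Of 7 related AlkB dioxygenase genes 5 had a peak, and the strong one, in the tRNA-modifying Alkbh8 (11.4, log10 p -2.09), touched 0 of 6 coding isoforms. Among 5 genes that supply S-adenosylmethionine, the methyl donor, 3 had a peak, with strong ones in Mat2b (15.6, log10 p -12.9) and Mtr (5.06, log10 p -1.96). The Mat2b peak had only 4 nt on the longest coding transcript. The shares of genes with a strong peak were not tested against those of the writers and erasers.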
